A study of Mus musculus with 6 samples.

Results

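The glycolysis and hypoxia-response genes described here are 32 genes: the enzymes and transporters that carry glucose to lactate, and targets of the hypoxia response. They were chosen by name and not by a measured value, but with earlier results of these data known. In GENCODE vM21 (mm10 build) the 32 names matched 33 of the 55450 rows in each deposited table, because Aldoa is the name of 2 rows. All 33 rows passed the filter on low counts, as did 14958 genes in all. The second Aldoa row (ENSMUSG00000114515.2) held at most 10.5 normalized counts in any library and is set apart below.

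The values come from bulk RNA-seq of mouse Th17 cells, T cells that secrete interleukin 17. Naive CD4+ T cells of wild-type mice aged 8 to 12 weeks were activated with anti-CD3ε at 0.25 µg/mL and anti-CD28 at 1 µg/mL, with TGF-β at 0.1 ng/mL and IL-6 at 20 ng/mL. After 24 h they received a retrovirus based on murine stem cell virus (MSCV) and were kept for 48 h with TGF-β at 0.3 ng/mL and IL-6 at 20 ng/mL, so that all cells were collected at 72 h. There were 3 groups of 2 libraries: cells given MSCV with ADAR2 WT, cells given MSCV with ADAR2 E396A, an enzymatically dead form, and cells given the empty vector. ADAR2 is the product of Adarb1 and turns adenosine into inosine in double-stranded RNA. The retrovirus adds the construct to cells that already transcribe Adarb1, and whether transduced cells were sorted is not stated in the sources used here. The donors were 2 mice, here A and B, so every comparison rests on n = 2. Each donor has 1 library per group; the columns bear no donor label, and libraries were matched to each other through the Wald statistics in the authors' tables.

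Glycolysis splits glucose into pyruvate, and activated T cells, Th17 cells among them, turn much of that pyruvate into lactate even where oxygen is present. Hypoxia-inducible factor 1 (HIF-1) is the transcription factor that drives many of these genes when oxygen is low. Its alpha subunit is marked for degradation by prolyl hydroxylases of the Egln family, and in T cells receptor signals and IL-6 also raise it. HIF-1 is known in mice to favour the Th17 over the regulatory T cell fate. It binds the core letters ACGTG or GCGTG, which lie in the promoters of many of its targets.

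Values below are given for donor A and then donor B within each group. Reads assigned to genes ranged from 16496328 to 21897166 per library. Adarb1 had 18499 and 19077 normalized counts in ADAR2 WT cells and 15709 and 14982 in ADAR2 E396A cells, against 3687 and 3346 in empty-vector cells. The 4 CD4 T cell markers summed to 23440 and 21053 normalized counts in ADAR2 WT cells and 24432 and 24632 in ADAR2 E396A cells, against 28271 and 23237 in empty-vector cells. All 4 were lower with ADAR2 WT than with empty vector in both donors, with log2 fold changes of -0.30 for Cd3d, -0.21 for Cd3e, -0.20 for Cd4 and -0.15 for Trac, and none passed limma's test (adjusted p of 0.141 to 0.451). In bulk RNA, fewer cells of a type and less RNA per cell cannot be told apart. B cell markers stayed at or under 39.6, myeloid markers at or under 10.8, stromal markers at or under 20.5 and erythroid markers at or under 2.32. Of the 2 endothelial markers, Cdh5 had at most 1 read in any library, and Pecam1, which T cells also transcribe, had 197 to 340 normalized counts. The 6 Th17 markers summed to between 17064 and 64357 and were lower in donor A than in donor B in every group. The 5 CD8 and NK cell markers summed to 194 and 197 in ADAR2 WT cells and 263 and 258 in ADAR2 E396A cells, against 334 and 287 in empty-vector cells. Klrd1, an NK cell receptor subunit, carried that difference, at 18.5 and 34.8 in ADAR2 WT cells and 105 and 109 in ADAR2 E396A cells, against 174 and 110 in empty-vector cells. Cd8b1 was instead higher with ADAR2 WT than with empty vector in both donors, at 159 and 142 in ADAR2 WT cells, against 151 and 112 in empty-vector cells. Cd8a differed in sign between the donors, Klrb1c had at most 2 reads in any library and Ncr1 was at 0 in all, so the list did not move together.

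Promoter windows are shown first for 4 members: Ldha, which had the most core letters of any member window, and Pdk1, Egln3 and Ankrd37, which are among the 5 members of largest log2 fold change with ADAR2 WT. Each is the RefSeq window from 250 bases before to 50 bases after a start of the gene (GRCm38.p6), read 5′ to 3′ on the gene's strand. Capitals mark ACGTG or GCGTG on either strand, so that CACGT and CACGC mark the opposite strand. The Ldha window lies at chr7:46845554-46845853 on the plus strand and Pdk1 at chr2:71872974-71873273 on the plus strand. The Egln3 window lies at chr12:54203825-54204124 on the minus strand and Ankrd37 at chr8:45999801-46000100 on the minus strand.
Ldha: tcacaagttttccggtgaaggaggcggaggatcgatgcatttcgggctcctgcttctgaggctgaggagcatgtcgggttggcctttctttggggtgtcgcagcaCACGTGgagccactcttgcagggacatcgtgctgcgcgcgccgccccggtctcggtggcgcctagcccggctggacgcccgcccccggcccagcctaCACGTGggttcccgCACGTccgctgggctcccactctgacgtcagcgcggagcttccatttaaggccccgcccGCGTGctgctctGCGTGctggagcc
Pdk1: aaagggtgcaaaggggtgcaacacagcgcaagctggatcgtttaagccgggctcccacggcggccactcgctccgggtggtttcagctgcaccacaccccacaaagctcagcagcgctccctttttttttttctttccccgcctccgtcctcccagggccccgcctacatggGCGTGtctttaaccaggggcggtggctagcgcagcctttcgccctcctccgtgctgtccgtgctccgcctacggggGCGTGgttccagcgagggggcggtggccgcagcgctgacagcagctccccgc
Egln3: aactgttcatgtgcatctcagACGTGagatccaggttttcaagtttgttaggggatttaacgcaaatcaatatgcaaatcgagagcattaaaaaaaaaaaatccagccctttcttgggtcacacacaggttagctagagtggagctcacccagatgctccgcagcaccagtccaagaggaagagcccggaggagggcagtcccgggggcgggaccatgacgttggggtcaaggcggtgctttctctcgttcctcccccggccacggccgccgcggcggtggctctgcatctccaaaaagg
Ankrd37: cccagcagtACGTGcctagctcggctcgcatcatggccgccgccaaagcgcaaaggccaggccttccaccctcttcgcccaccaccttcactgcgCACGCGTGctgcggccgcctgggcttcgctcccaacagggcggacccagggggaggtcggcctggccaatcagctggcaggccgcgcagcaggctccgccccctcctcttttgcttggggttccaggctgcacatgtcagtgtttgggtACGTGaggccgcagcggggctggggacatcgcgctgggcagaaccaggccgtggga
The Ldha window held 7 matches, of which 4 came from 2 copies of the palindrome CACGTG, each counted once per strand. The windows of Pdk1, Egln3 and Ankrd37 held 2, 1 and 4 matches, and each of these genes was lower with ADAR2 WT than with empty vector. P4ha2, also among the 5 members of largest log2 fold change with ADAR2 WT, was higher with it. The P4ha2 window held 4 matches and is not printed. Ldha and Pdk1 each have a second RefSeq window at another start, not printed, which held 2 matches for Ldha and 0 for Pdk1.

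RefSeq windows were found for 30 of the 32 members, Ero1l under its newer symbol Ero1a, and Slc2a3 and Bnip3l had none. At least 1 match stood in a window of 28 of the 30 genes (93.3%), against 46.7% of 27025 genes with windows. Counted by window, 36 of 46 member windows held a match (78.3%), against 43.8% of 32851 windows. At least 2 matches stood in 58.7% of member windows, against 20.6% of all. CACGTG, which overlaps ACGTG and is also the core letters of MYC binding, stood in 10.9% of member windows and 7.15% of all. Both cores contain the letters CG, and the genes of the background were not matched to the members for base composition or expression. Members also had more windows per gene, 46 for 30 genes against 32851 for 27025, and some windows of a gene overlap. The part of these differences in the shares was not tested. A match is a run of letters and not a measured binding site.

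No member passed limma's test in any of the 3 comparisons at an adjusted p under 0.05. With ADAR2 WT against empty vector 0 of 33 rows passed, where 0.816% of all genes tested did. With ADAR2 E396A against empty vector 0 of 33 passed, where 0.0134% of all genes did. Between ADAR2 WT and ADAR2 E396A 0 of 33 passed, where 0.0669% of all genes did. These backgrounds rest on limma's mean-variance trend, without which 0 genes of any kind passed in any of the 3 comparisons. At an unadjusted p under 0.05, limma gave 6 members with ADAR2 WT against empty vector (background 14.1%), 1 with ADAR2 E396A against empty vector (background 3.89%) and 6 between the constructs (background 12.4%). edgeR's count test also called 0 members in each comparison, and DESeq2 called 1, Slc2a3, in each comparison that involves ADAR2 WT and 0 with ADAR2 E396A against empty vector. Over all genes, with ADAR2 WT against empty vector, edgeR called 127 and DESeq2 212. With ADAR2 E396A against empty vector they called 2 and 7, and between the constructs 10 and 110.

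The members' median log2 fold change was -0.03 with ADAR2 WT and -0.03 with ADAR2 E396A, each against empty vector, where the medians of all genes were -0.0025 and -0.0095. Between ADAR2 WT and ADAR2 E396A the members' median was 0.01, beside 0.0044 for all genes. With ADAR2 WT, 14 of 33 rows were lower than empty vector in both donors (background 31.5%), 7 were higher in both (background 31.2%) and 12 differed in sign between the donors (background 37.3%). With ADAR2 E396A, 16 of 33 were lower in both donors (background 23.9%), 1 was higher in both (background 21.4%) and 16 differed in sign (background 54.7%). Between ADAR2 WT and ADAR2 E396A, 9 were lower with ADAR2 WT in both donors (background 29.6%), 12 were higher (background 32.9%) and 12 differed in sign (background 37.5%). The 3 comparisons share libraries, so their counts are not independent. As a share of reads of protein-coding genes, the members took 1.87% and 1.84% in ADAR2 WT cells and 1.82% and 1.83% in ADAR2 E396A cells, against 1.86% and 1.91% in empty-vector cells. Both ADAR2 E396A shares were the lowest of the 6 by this measure. As a share of all reads assigned to genes they were not, since donor A's empty-vector library, at 1.638%, was below donor B's ADAR2 E396A library, at 1.641%. The ADAR2 WT and empty-vector shares overlapped by either measure.

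**Figure D1:**
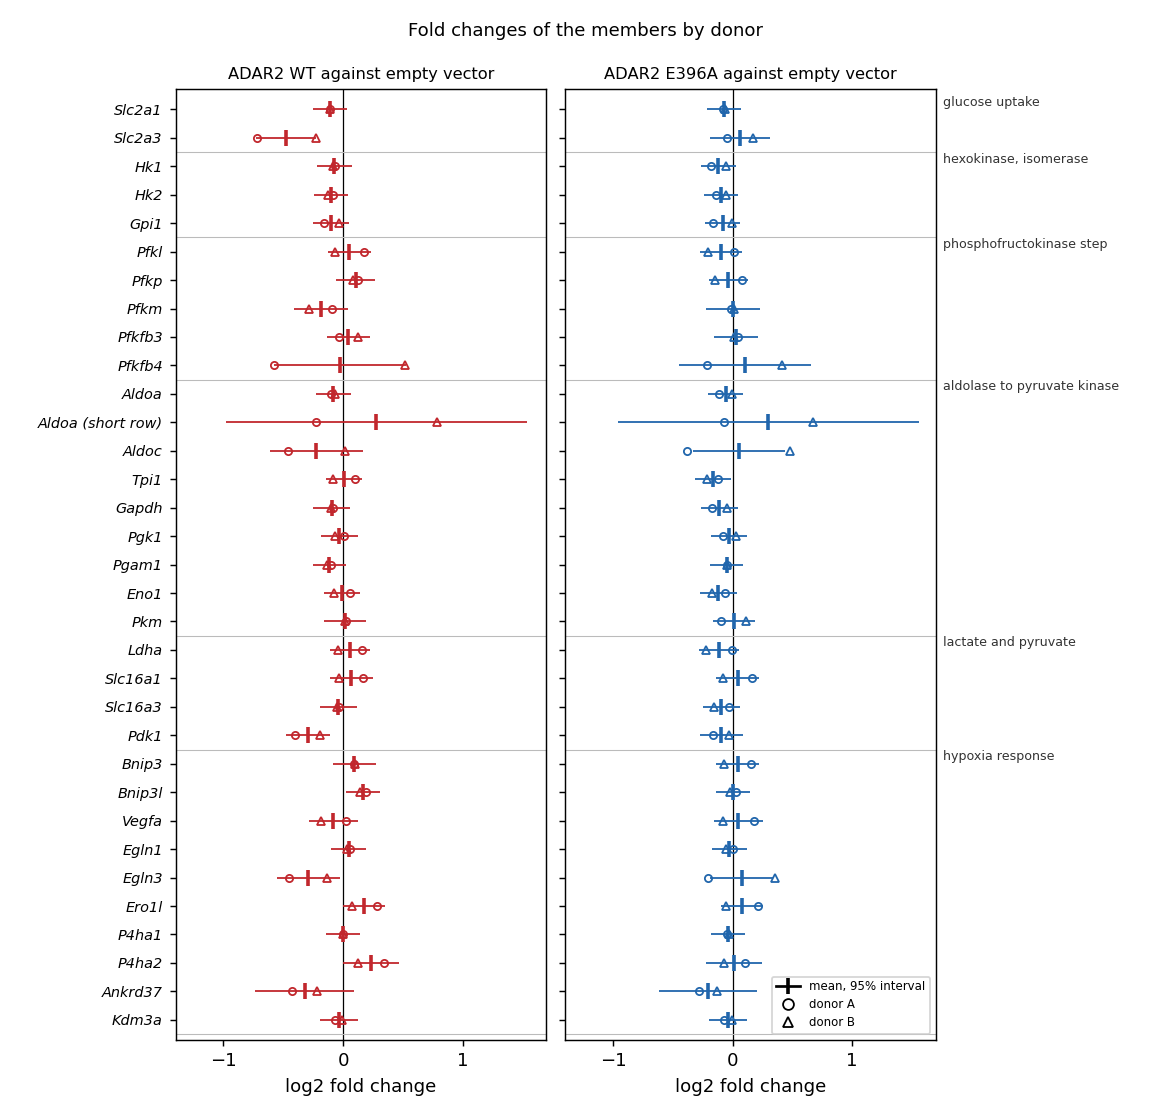
Log2 fold change (horizontal axis) of each of the 33 member rows, by role from top to bottom, with ADAR2 WT (left) and ADAR2 E396A (right) against empty vector. Bars are the mean of the donors, lines the 95% interval of limma's fit, circles donor A and triangles donor B; most rows lie near 0, and Slc2a3 at -0.47 on the left has its donors at -0.72 and -0.23.

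**Figure D2:**
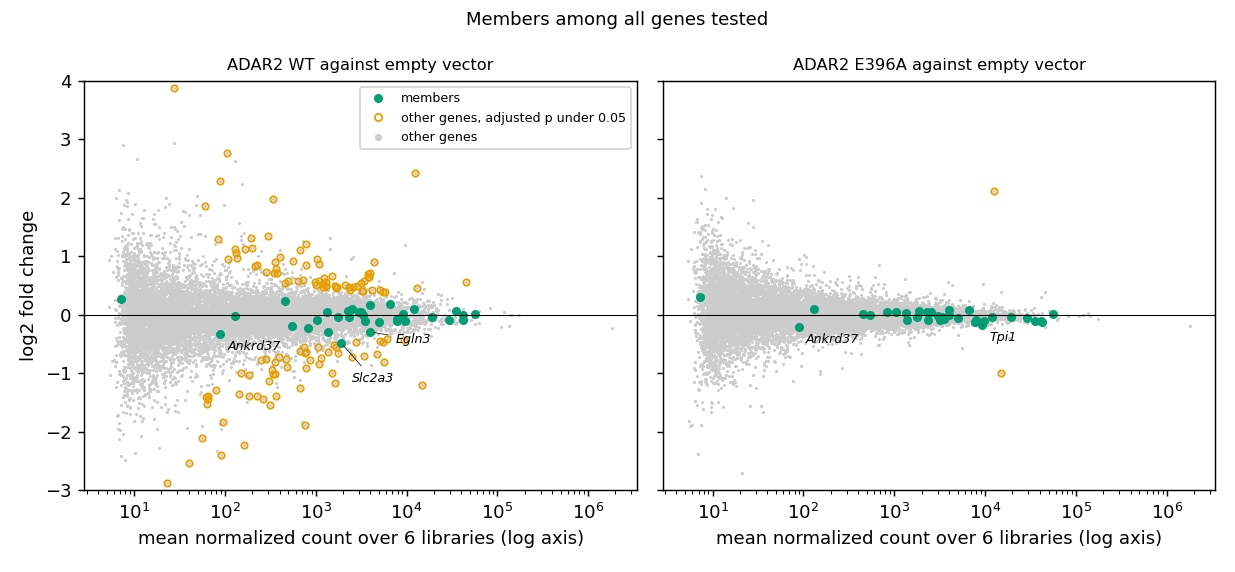
Log2 fold change (vertical axis) against the mean normalized count over 6 libraries (log axis) for the genes tested, with ADAR2 WT (left) and ADAR2 E396A (right) against empty vector. Members are filled points, other genes passing limma's test are open circles and the rest are grey; no member is among the 122 genes passing on the left or the 2 on the right.

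Glucose enters T cells through the transporters GLUT1, encoded by Slc2a1, and GLUT3, encoded by Slc2a3. Slc2a3 (ENSMUSG00000003153.10, chromosome 6, 122727809 to 122801640, minus strand, mm10) had the largest log2 fold change with ADAR2 WT, against either of the other groups, of the members whose mean count was at least 50. It stood at 1929 and 902 normalized counts in ADAR2 WT cells and 3085 and 1189 in ADAR2 E396A cells, against 3178 and 1058 in empty-vector cells. Within each donor the ADAR2 WT library was the lowest of the 3, while the groups overlapped because donor A was above donor B throughout. The log2 fold change with ADAR2 WT against empty vector was -0.47 (SE 0.11, limma adjusted p = 0.106), with -0.72 in donor A and -0.23 in donor B. Against ADAR2 E396A it was -0.54 (SE 0.11, limma adjusted p = 0.131), with -0.68 in donor A and -0.40 in donor B.

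The call for Slc2a3 turned on the method. DESeq2 gave adjusted p = 0.0159 against empty vector and adjusted p = 0.00665 against ADAR2 E396A, while edgeR gave adjusted p = 0.0992 and adjusted p = 0.122. In the authors' deposited table for ADAR2 WT, Slc2a3 was the 1 member with an adjusted p under 0.05, at 0.0411, with a log2 fold change of 0.48 (SE 0.14) that runs from construct to empty vector. How many of all genes were under 0.05 in that table was not counted. No member was under 0.05 in the authors' deposited table for ADAR2 E396A. limma on the 4 libraries of the comparison alone gave adjusted p = 1.82e-06 against empty vector, with 1 residual degree of freedom per gene. Leaving out donor A's or donor B's ADAR2 E396A library gave adjusted p = 0.000958 and 1.02e-06 in limma, and leaving out donor B's empty-vector library gave 0.00859. With donor A's ADAR2 WT library left out the value was -0.28 (limma adjusted p = 0.950), with donor B's left out -0.67 (limma adjusted p = 0.227), and with donor A's empty-vector library left out -0.30 (limma adjusted p = 0.471). Against ADAR2 E396A, limma gave adjusted p = 0.0494 with no filter on low counts and adjusted p = 0.0293 on the 4 libraries alone. Leaving out donor A's or donor B's ADAR2 E396A library, it gave adjusted p = 0.00732 and 0.000126, and leaving out donor A's or donor B's empty-vector library, adjusted p = 0.00799 and 0.00940. With donor A's or donor B's ADAR2 WT library left out, the value against ADAR2 E396A was -0.34 (limma adjusted p = 0.994) and -0.73 (limma adjusted p = 0.288). The 4 CD4 T cell markers and Klrd1, given above, were also lower with ADAR2 WT than with empty vector in both donors, and their part in this value and in those of Pdk1 and Egln3 below was not tested.

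Slc2a1 stood at 3248 and 3557 normalized counts in ADAR2 WT cells and 3317 and 3665 in ADAR2 E396A cells, against 3500 and 3832 in empty-vector cells. The order of the groups was the same in both donors, with ADAR2 WT lowest, yet the log2 fold change with ADAR2 WT was only -0.11 (SE 0.06, limma adjusted p = 0.473). Its 95% interval ran from 0.842-fold to 1.02-fold. Per kilobase of annotated exon, Slc2a1 averaged 1004 normalized counts and Slc2a3 averaged 261, so by this measure GLUT1 transcripts were the more abundant in these cultures. The length used is that of all annotated exons of a gene joined, which can exceed the length of the transcripts present. Orders per kilobase, here and below, therefore hold for this measure only.

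Hexokinases commit glucose to the cell by phosphorylating it, and glucose-6-phosphate isomerase, encoded by Gpi1, turns the product into fructose-6-phosphate. Hk2, the inducible hexokinase, was the highest of the 3 per kilobase of annotated exon. It stood at 9417 and 9508 normalized counts in ADAR2 WT cells and 9082 and 9959 in ADAR2 E396A cells, against 9985 and 10363 in empty-vector cells. Hk1, the more widely expressed form, stood at 7850 and 7649 in ADAR2 WT cells and 7239 and 7790 in ADAR2 E396A cells, against 8204 and 8101 in empty-vector cells. In both genes each construct library was under the empty-vector library of the same donor, by small amounts. With ADAR2 WT the log2 fold changes were -0.10 for Hk2 (SE 0.06, limma adjusted p = 0.490) and -0.07 for Hk1 (SE 0.06, limma adjusted p = 0.651). With ADAR2 E396A, Hk1 had -0.12 (SE 0.06, limma adjusted p = 0.999). Gpi1 had -0.10 with ADAR2 WT and -0.08 with ADAR2 E396A. All 3 genes were lower than empty vector in both donors with either construct, none passed the test, and their 95% intervals lay between 0.832-fold and 1.05-fold over both comparisons.

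Phosphofructokinase makes the committed step of glycolysis; Pfkl, Pfkp and Pfkm encode its liver, platelet and muscle subunits, and Pfkfb3 and Pfkfb4 encode enzymes that set the level of its activator fructose-2,6-bisphosphate. Pfkp was the highest per kilobase of annotated exon, at a mean of 894 normalized counts per kilobase, beside 477 for Pfkl and 162 for Pfkm. Pfkp stood at 12679 and 12664 normalized counts in ADAR2 WT cells and 12264 and 10766 in ADAR2 E396A cells, against 11624 and 11922 in empty-vector cells. Both ADAR2 WT libraries were above both empty-vector libraries, and the difference was 0.11 on the log2 scale (SE 0.07, limma adjusted p = 0.546). Its exons share positions with those of Pitrm1 on the opposite strand, and the strand setting of the counts is not given in the sources used here. Pfkl, Pfkm and Pfkfb3 had log2 fold changes of 0.05, -0.19 and 0.05 with ADAR2 WT, and none of the 3 passed. Exons of Pfkm share positions with Gm26513 on the same strand and with Senp1 on the opposite strand. Together Gm26513 and Senp1 averaged 2618 normalized counts, beside 542 for Pfkm, and their part in its counts was not tested. Pfkfb4, at 101 to 156 normalized counts, differed in sign between the donors with ADAR2 WT, by -0.57 in donor A and 0.52 in donor B, and likewise with ADAR2 E396A, by -0.21 and 0.42. Its fitted log2 fold changes of -0.03 and 0.10 (SE 0.24 each) therefore average 2 unlike donors.

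The 8 genes from aldolase to pyruvate kinase include the most abundant members. Pkm, which encodes the pyruvate kinase of proliferating cells and muscle, averaged 11288 normalized counts per kilobase, and Aldoa and Gapdh, which encode aldolase A and glyceraldehyde-3-phosphate dehydrogenase, averaged 10071 and 10060. Pgk1 (phosphoglycerate kinase) and Eno1 (enolase) followed at 8605 and 7849, Tpi1 (triosephosphate isomerase) at 3359 and Pgam1 (phosphoglycerate mutase) at 2534. Aldoc, the aldolase best known from brain, averaged 254.

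**Figure D3:**
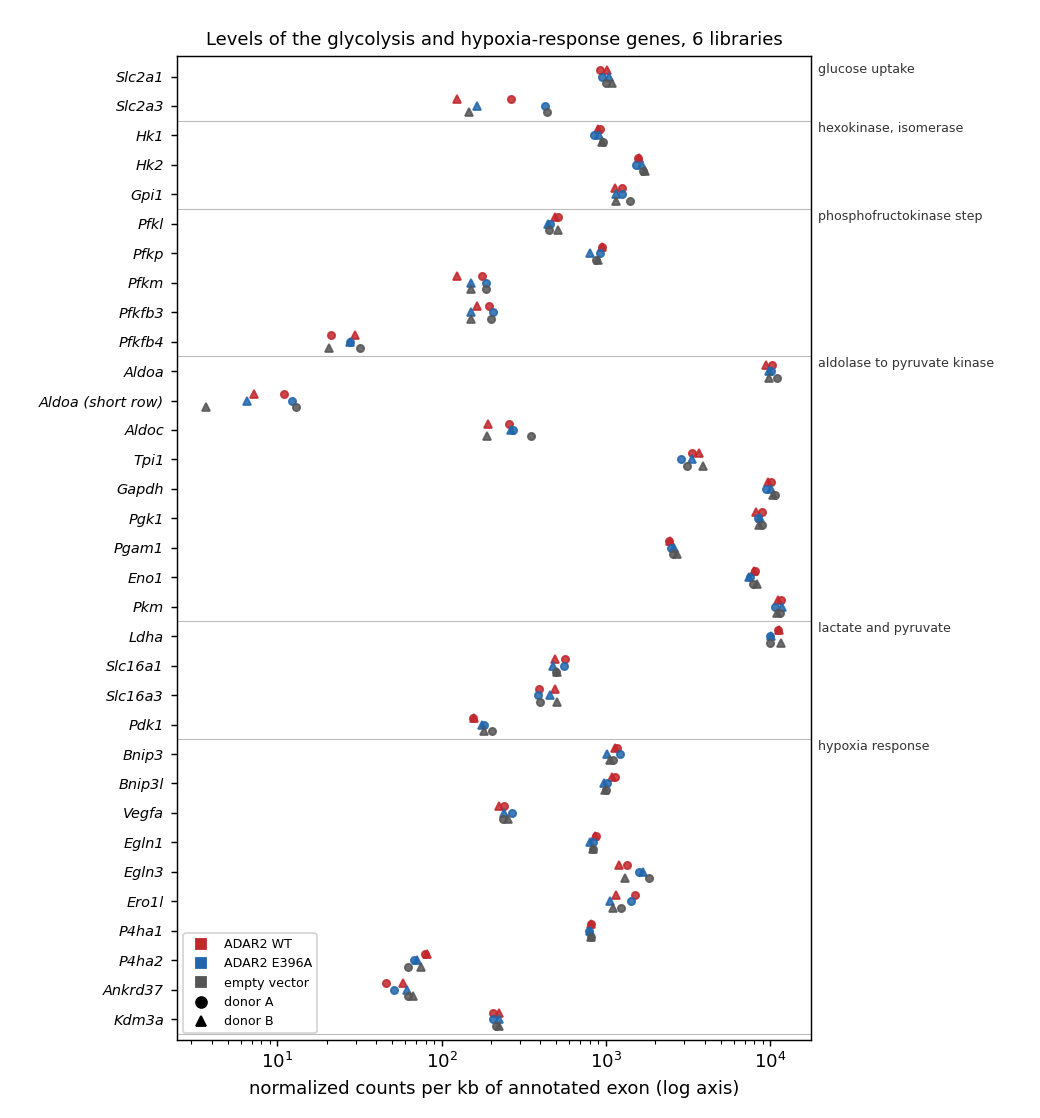
Normalized counts per kilobase of annotated exon (log axis) for the 33 member rows by role, in the 2 ADAR2 WT, 2 ADAR2 E396A and 2 empty-vector libraries. Circles are donor A and triangles donor B; Pkm, Ldha, Aldoa and Gapdh lie at the top, and the libraries of a gene lie close together except for Slc2a3 and the low rows.

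Pkm stood at 58301 and 55382 normalized counts in ADAR2 WT cells and 53682 and 59239 in ADAR2 E396A cells, against 57351 and 54766 in empty-vector cells. The groups overlapped. Against empty vector, ADAR2 WT gave a log2 fold change of 0.02 (SE 0.08, adjusted p = 0.934 in limma), and ADAR2 E396A gave 0.01 (SE 0.08, adjusted p = 0.999 in limma). Eno1 stood at 43707 and 42667 in ADAR2 WT cells and 40234 and 39761 in ADAR2 E396A cells, against 42037 and 44919 in empty-vector cells. Both ADAR2 E396A libraries were the lowest of the 6, and the log2 difference was -0.12 against empty vector (SE 0.07, limma adjusted p = 0.999). Tpi1 stood at 9133 and 10079 in ADAR2 WT cells and 7857 and 9212 in ADAR2 E396A cells, against 8525 and 10684 in empty-vector cells. In each donor the ADAR2 E396A library was the lowest for Tpi1, and its log2 fold change of -0.17 against empty vector was the 1 member value in that comparison with an unadjusted p under 0.05 (SE 0.07, limma adjusted p = 0.999). Between ADAR2 WT and ADAR2 E396A Tpi1 had 0.17 (SE 0.07, limma adjusted p = 0.345).

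For the 7 abundant rows of this stretch, Aldoc and the second Aldoa row left out, limma's 95% intervals were narrow. The intervals lay between 0.838-fold and 1.14-fold with ADAR2 WT and between 0.802-fold and 1.14-fold with ADAR2 E396A, each against empty vector. Their width rests on limma's mean-variance trend, which draws on the spread of other genes. Aldoc varied more. It stood at 835 and 623 normalized counts in ADAR2 WT cells and 884 and 861 in ADAR2 E396A cells, against 1149 and 616 in empty-vector cells, and the empty-vector libraries alone spanned all the others. Between ADAR2 WT and ADAR2 E396A its log2 fold change was -0.27 (SE 0.17, limma adjusted p = 0.544). With donor A's ADAR2 E396A library left out it was -0.58 (limma adjusted p = 0.00650), and against empty vector it was -0.55 with donor B's empty-vector library left out (limma adjusted p = 0.0391), where all 6 libraries gave -0.22 (limma adjusted p = 0.596). Leaving out the other donor's library turned both signs, to 0.032 against ADAR2 E396A without donor B's ADAR2 E396A library (limma adjusted p = 0.983) and to 0.11 against empty vector without donor A's empty-vector library (limma adjusted p = 0.900). With ADAR2 E396A against empty vector the donors differed in sign, by -0.38 in donor A and 0.48 in donor B. The second Aldoa row stood at 8.77 and 5.79 in ADAR2 WT cells and 9.89 and 5.25 in ADAR2 E396A cells, against 10.5 and 2.93 in empty-vector cells, too few counts to place a change.

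Lactate dehydrogenase A, encoded by Ldha, reduces pyruvate to lactate; Slc16a1 and Slc16a3 encode the lactate transporters MCT1 and MCT4, and Pdk1 encodes a kinase that holds pyruvate back from the mitochondria by inhibiting pyruvate dehydrogenase. Ldha averaged 10675 normalized counts per kilobase. It stood at 36880 and 37515 normalized counts in ADAR2 WT cells and 32805 and 33214 in ADAR2 E396A cells, against 32949 and 38642 in empty-vector cells. Both ADAR2 WT libraries were above both ADAR2 E396A libraries. The empty-vector libraries differed more, with donor A at the level of ADAR2 E396A and donor B the highest of all. The log2 fold change between ADAR2 WT and ADAR2 E396A was 0.17 (SE 0.07, limma adjusted p = 0.395), and against empty vector it was 0.06 with ADAR2 WT and -0.11 with ADAR2 E396A.

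Pdk1 (ENSMUSG00000006494.11, chromosome 2, 71873224 to 71903858, plus strand, mm10) stood at 1201 and 1232 normalized counts in ADAR2 WT cells and 1416 and 1380 in ADAR2 E396A cells, against 1583 and 1405 in empty-vector cells. Both ADAR2 WT libraries were below all 4 others, and the ADAR2 E396A libraries lay between in each donor. The log2 fold change with ADAR2 WT against empty vector was -0.29 (SE 0.08, limma adjusted p = 0.156), with -0.40 in donor A and -0.19 in donor B. Against ADAR2 E396A it was -0.20 (SE 0.08, limma adjusted p = 0.360). On the 4 libraries alone limma gave adjusted p = 0.0140 against empty vector. Leaving out donor A's or donor B's ADAR2 E396A library, the adjusted p in limma was 0.0375 and 0.0148, and leaving out donor B's empty-vector library it was 0.0407. With donor A's empty-vector library left out the value was -0.21 (limma adjusted p = 0.639), and with donor A's or donor B's ADAR2 WT library left out it was -0.22 and -0.36 (limma adjusted p = 0.950 and 0.600). Slc16a1 and Slc16a3 had log2 fold changes against empty vector of 0.07 and -0.04 with ADAR2 WT, and for ADAR2 E396A the values were 0.04 and -0.09, none of which passed.

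Among the hypoxia-response members, Egln3 encodes the oxygen-sensing prolyl hydroxylase PHD3, itself induced by HIF-1, and Egln1 encodes PHD2, the main regulator of HIF-1 stability under normal oxygen. Egln3 (ENSMUSG00000035105.5, chromosome 12, 54178981 to 54203860, minus strand, mm10) stood at 3573 and 3188 normalized counts in ADAR2 WT cells and 4236 and 4465 in ADAR2 E396A cells, against 4879 and 3492 in empty-vector cells. In each donor the ADAR2 WT library was the lowest, and the empty-vector libraries differed from each other by more than the constructs did from their donor's control. The log2 fold change with ADAR2 WT was -0.29 against empty vector (SE 0.11, limma adjusted p = 0.308) and -0.37 against ADAR2 E396A (SE 0.11, limma adjusted p = 0.259). With ADAR2 E396A against empty vector the donors differed in sign, by -0.20 in donor A and 0.35 in donor B. Against empty vector, limma gave adjusted p = 0.00290 on the 4 libraries alone, adjusted p = 0.0189 and 0.00302 when donor A's or donor B's ADAR2 E396A library was left out, and adjusted p = 0.0123, at -0.51, when donor B's empty-vector library was. When donor A's empty-vector library was left out the value was -0.072 (limma adjusted p = 0.905), and when donor A's or donor B's ADAR2 WT library was, -0.27 and -0.31 (limma adjusted p = 0.950 and 0.750). Against ADAR2 E396A it gave adjusted p = 0.0208 and 0.0237 when donor A's or donor B's empty-vector library was left out, and adjusted p = 0.000351, at -0.56, when donor A's ADAR2 E396A library was. When donor B's ADAR2 E396A library was left out that value was -0.17 (limma adjusted p = 0.706), and when donor A's or donor B's ADAR2 WT library was, -0.35 and -0.39 (limma adjusted p = 0.994 and 0.805). Egln1 was steady, at 3129 and 3081 in ADAR2 WT cells and 2997 and 2894 in ADAR2 E396A cells, against 2998 and 3007 in empty-vector cells, and the 95% interval of its change with ADAR2 WT ran from 0.935-fold to 1.14-fold.

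**Figure D4:**
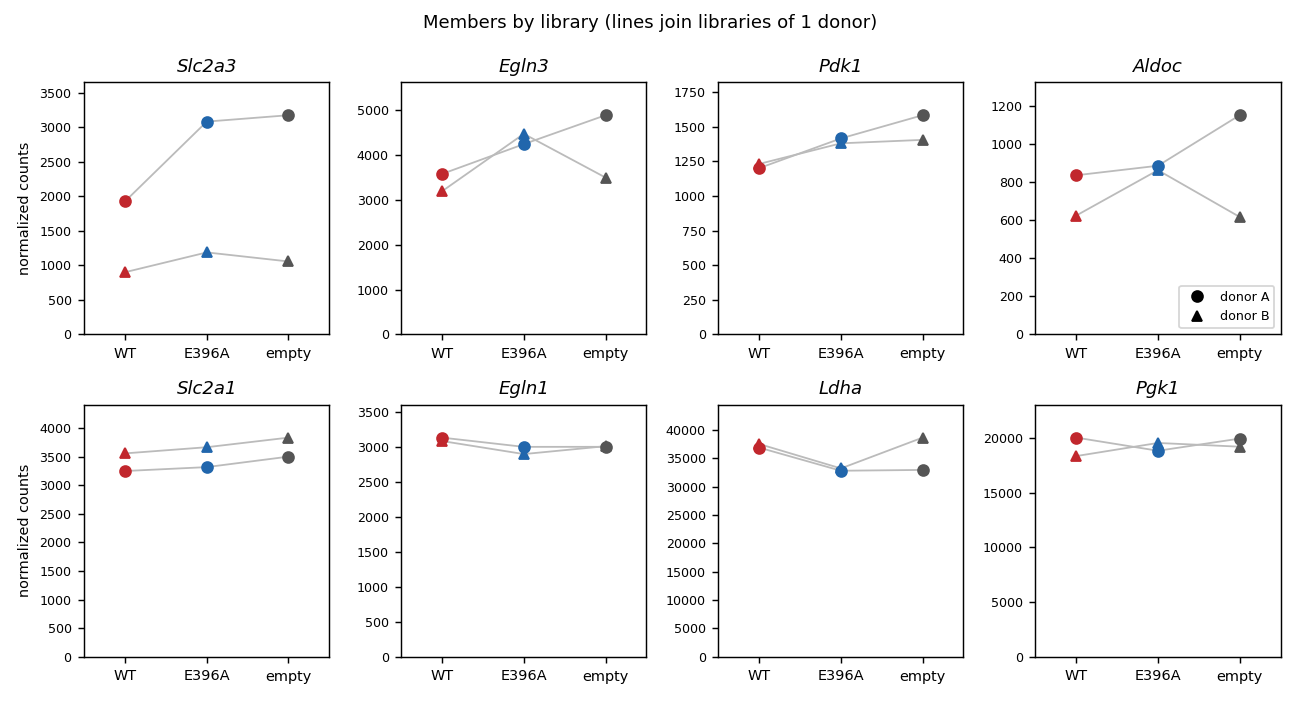
Normalized counts (vertical axes from 0) in the ADAR2 WT, ADAR2 E396A and empty-vector libraries for 8 members, with lines joining the libraries of a donor. Slc2a3, Egln3, Pdk1 and Aldoc (top) show the ADAR2 WT library under the other libraries of its donor, except Aldoc in donor B, where the empty-vector library is at 616 and ADAR2 WT at 623; Slc2a1, Egln1, Ldha and Pgk1 (bottom) vary less in proportion.

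Ero1l and P4ha2 were higher with ADAR2 WT in both donors without passing. Ero1l, which encodes the oxidase that drives disulfide formation in the endoplasmic reticulum, had the highest mean count of the group, although Egln3 was higher per kilobase, at 1492 against 1245 normalized counts per kilobase. Ero1l stood at 7910 and 6113 in ADAR2 WT cells and 7547 and 5594 in ADAR2 E396A cells, against 6502 and 5809 in empty-vector cells. Its log2 fold change with ADAR2 WT was 0.18 (SE 0.08, limma adjusted p = 0.346), with 0.28 in donor A and 0.07 in donor B, and with donor B's empty-vector library left out it was 0.30 (limma adjusted p = 0.0322). With donor A's empty-vector library left out it was 0.058 (limma adjusted p = 0.897). P4ha2, a subunit of the collagen prolyl hydroxylase, stood at 498 and 512 in ADAR2 WT cells and 422 and 445 in ADAR2 E396A cells, against 392 and 468 in empty-vector cells. Both ADAR2 WT libraries of P4ha2 were above the 4 others, with log2 fold changes of 0.24 against empty vector (SE 0.10, limma adjusted p = 0.350) and 0.22 against ADAR2 E396A (SE 0.10, limma adjusted p = 0.431). Its paralog P4ha1 stood between 3242 and 3355 in all 6 libraries, and the 95% interval of its change with ADAR2 WT ran from 0.906-fold to 1.10-fold.

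Bnip3 and Bnip3l encode mitochondrial proteins that mark mitochondria for removal by autophagy. Bnip3l, picked out after its values were seen because its unadjusted p was under 0.05, stood at 4393 and 4183 in ADAR2 WT cells and 3927 and 3741 in ADAR2 E396A cells, against 3855 and 3787 in empty-vector cells. Both ADAR2 WT libraries were above the 4 others, with log2 fold changes of 0.17 against empty vector (SE 0.06, limma adjusted p = 0.284) and 0.16 against ADAR2 E396A (SE 0.06, limma adjusted p = 0.343). Bnip3 had 0.09 with ADAR2 WT. Ankrd37, a HIF-1 target that encodes an ankyrin-repeat protein, stood at 71.2 and 89.2 in ADAR2 WT cells and 79.1 and 94.5 in ADAR2 E396A cells, against 96.2 and 104 in empty-vector cells. The order ADAR2 WT, ADAR2 E396A, empty vector held in both donors, with log2 fold changes of -0.32 (SE 0.18, limma adjusted p = 0.463) and -0.21 (SE 0.18, limma adjusted p = 0.999) against empty vector. Its exons share positions with Lrp2bp and Ufsp2 on the opposite strand, which together averaged 927 normalized counts beside 89.0 for Ankrd37, and with the strand setting unknown their part in its counts was not tested. Vegfa, which encodes the angiogenic growth factor, had -0.08 and 0.05, and Kdm3a, a histone H3 lysine demethylase, had -0.04 and -0.04. Of the 10 hypoxia-response members, 5 had positive and 5 had negative log2 fold changes with ADAR2 WT, and the 13 positive values over all 33 rows stood beside 20 negative ones. Over all 14958 genes tested, 7416 values were positive and 7542 negative.

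Setting the short Aldoa row aside, the 95% interval of every member lay between 0.602-fold and 1.44-fold with ADAR2 WT and between 0.653-fold and 1.58-fold with ADAR2 E396A, each against empty vector. The outer bounds belong to Ankrd37 and Pfkfb4, the members with the fewest counts.

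Differences between the donors were larger than those between constructs for several members, and they are given as a description, since each donor is 1 mouse. In 11 of 33 rows the 3 libraries of one donor were all above the 3 of the other (background 22.8%). Donor A was the higher for 7 rows (background 11.8%): Slc2a3, Gpi1, Pfkm, Pfkfb3, both Aldoa rows and Ero1l. Donor A was the lower for 4 rows (background 11.0%): Slc2a1, Tpi1, Slc16a3 and Kdm3a. Donor means were at least 1.5-fold apart in 2 of 33 rows (background 9.56%), Slc2a3 and the second Aldoa row. Slc2a3 was 2.55-fold higher in donor A over the 3 groups, while Slc2a1 was at 0.911-fold, so the transporters differed in opposite directions between the mice. Il17a moved the other way from Slc2a3, at 6629 and 17952 normalized counts in ADAR2 WT cells and 2626 and 18220 in ADAR2 E396A cells, against 2447 and 9317 in empty-vector cells. The part of the Th17 markers' difference in the donors' Slc2a3 levels was not tested.

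**Figure D5:**
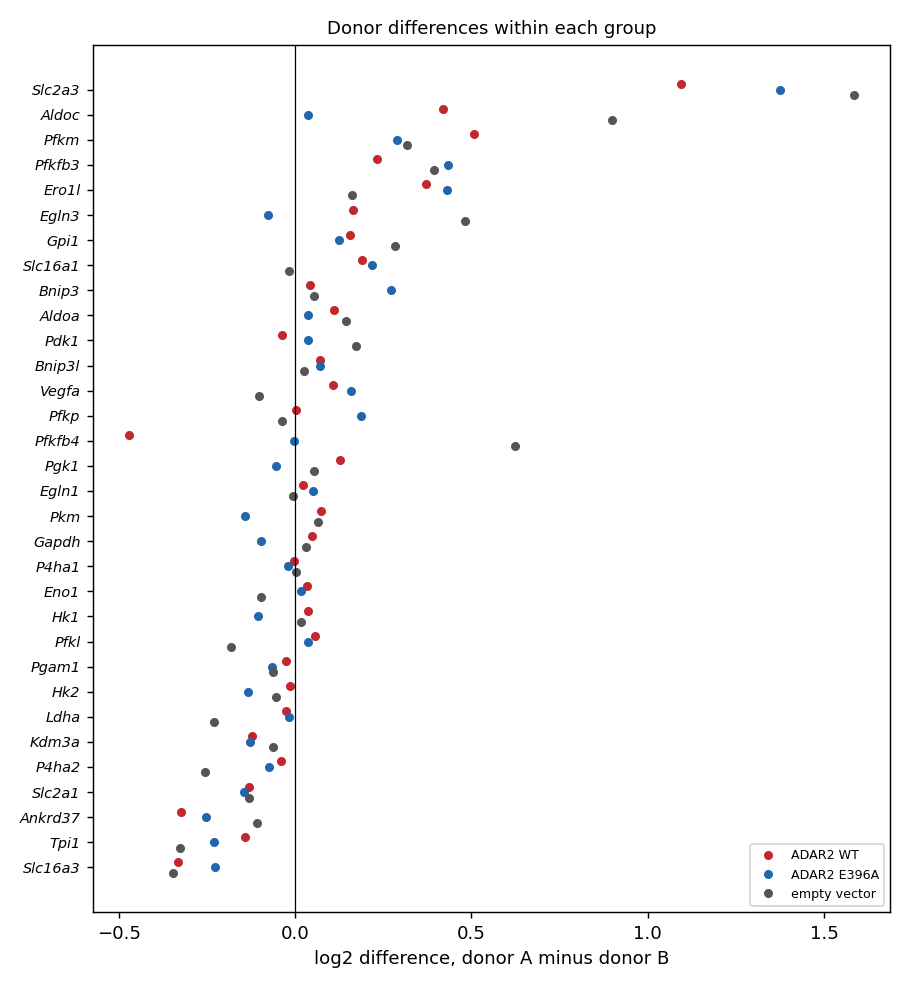
Log2 difference between donor A and donor B (horizontal axis) within the ADAR2 WT, ADAR2 E396A and empty-vector groups for the members whose mean normalized count was at least 50, ordered by their mean difference. Slc2a3 stands apart on the right in all 3 groups, Slc16a3 and Tpi1 are at the low end, and Pfkfb4 has groups on both sides of 0.

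Other genes of the pathway were followed in 5 lists, and 0 of their 97 tested genes (of 111 listed) passed limma's test in any of the 3 comparisons. Among 17 further glycolytic genes, the largest log2 fold changes with ADAR2 WT against empty vector among genes whose mean normalized count was at least 50 were 0.36 for Slc2a6 (SE 0.12, limma adjusted p = 0.223), a lysosomal hexose transporter, 0.31 for Pfkfb1 and -0.25 for Eno2. Slc2a6 stood at 946 and 1262 normalized counts in ADAR2 WT cells and 697 and 777 in ADAR2 E396A cells, against 674 and 1067 in empty-vector cells, and in each donor the ADAR2 WT library was the highest. Among 33 further hypoxia genes, Car12, which encodes a membrane carbonic anhydrase, had the smallest adjusted p with ADAR2 WT, at -0.61 (SE 0.13, limma adjusted p = 0.0813). It stood at 229 and 193 in ADAR2 WT cells and 359 and 244 in ADAR2 E396A cells, against 356 and 292 in empty-vector cells, and both ADAR2 WT libraries were the lowest of all. Adm, the vasodilator peptide adrenomedullin, had -0.54 and Angptl4, an inhibitor of lipoprotein lipase, had -0.37, and neither passed. Hif1a itself, named here although outside that rule, had -0.03 with ADAR2 WT and 0.12 with ADAR2 E396A.

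In the pentose phosphate branch, 0 of 8 genes passed, and Pgd, H6pd and Rpia had log2 fold changes of 0.14, -0.08 and 0.07 with ADAR2 WT. Among 28 genes of pyruvate oxidation and the citric acid cycle, 0 passed, and Pdp1, which encodes the phosphatase that opposes Pdk1, had -0.20, Suclg1 0.18 and Pdk3 0.16. Of 11 regulators tested, 0 passed. Arrdc4 and Txnip, which encode arrestins that limit glucose uptake, had -0.33 (SE 0.11, limma adjusted p = 0.241) and -0.19 (SE 0.09, limma adjusted p = 0.375), and Mycn had 0.25 (SE 0.11, limma adjusted p = 0.349). Medians of the 5 lists with ADAR2 WT against empty vector ran from -0.00042 for further hypoxia genes to 0.02 for the regulators, beside -0.0025 over all genes.

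The identity of some counts has a limit. Of the 33 rows, 11 have another annotated gene at least 95% identical over at least 200 bases, led by Gapdh with 93. The counts listed for such copies came to at most 1.27% of the member's own. They do not show how many of a member's reads were left out for matching more than 1 place. Exons of 10 rows share positions with a gene on the opposite strand, and those of Pfkm and Pkm with a gene on the same strand, whose reads cannot be told apart here.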

How the data were processed

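The deposited data are 2 tables, 1 per construct, with 55450 genes in each. By their file headers they hold results the authors obtained with DESeq2 (mean count, log2 fold change and its error, Wald score, p-value, adjusted p-value), and 4 columns of library values that are normalized counts, a non-negative signal. Aligner, counter and test were STAR 2.6.1a, featureCounts and DESeq2 1.18.1 on mm10, per the submitters' processing notes; whether strand was used is not given in the sources used here. In the authors' tables a positive log2 fold change means higher in empty vector. Elsewhere here it means higher in the construct, or in ADAR2 WT where it is set against ADAR2 E396A.

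Dividing each deposited column by its smallest value above 0 gave whole numbers for 100% of values, to within 0.001, which were taken as the reads. No column carries a group label: libraries found in both tables were assigned to empty vector and the others to the construct of their table's name. Donor pairs were found by refitting DESeq2 under each pairing and comparing with the deposited Wald scores: the pairing used differed by at most 0.0008 and 0.0011 over 28601 and 28872 genes, the crossed one by 13.8 and 6.08, and a fit with no donor term by 6.67 and 2.03. Which labelled replicate is which donor is unknown.

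The reads were scaled with median-of-ratios factors, filtered by edgeR's filterByExpr and tested in limma 3.58.1 (R 4.3.3) on log2(normalized count + 1), with group and donor as terms, a mean-variance trend, and Benjamini-Hochberg adjustment over 14958 genes at 0.05. Fold changes on this scale understate those of low genes. Whether to use the trend had not been decided beforehand; it was adopted after limma without it had called no gene, Adarb1 included. Names, positions and exon lengths are those of GENCODE vM21, with exon length taken over all annotated exons of a gene, each position counted once. Alternatives were edgeR 4.0.16 and DESeq2 1.42.0 on the reads, other scalings, filters and pseudocounts, no donor term, 4 libraries alone, and each library left out. The test was checked on simulated counts, and copies were sought with blastn 2.17.0.

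The members, roles, pathway lists and markers were chosen with earlier results of these data known. Values in every library are given for members that passed (none did), for the 5 members of largest log2 fold change in each comparison whose mean count was at least 50 and for the member of highest mean count in each role; others shown this way (Bnip3l, Egln1, the second Aldoa row, Il17a, Adarb1, Slc2a6, Car12) were added beside them. Of each pathway list, the 3 genes of largest log2 fold change with ADAR2 WT are named under the same minimum, and any that passed. Intervals are at 95%, are not adjusted for the number of genes tested, and rest on the mean-variance trend. With donor as a term, the p-values set group differences against the spread left between these cultures of 2 mice after donor is taken out. In limma that spread is also drawn towards the mean-variance trend of other genes. The p-values do not measure the spread among mice at large.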

Additional observations from a re-analysis of the deposited data

How the results depend on the processing

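Values run in the order ADAR2 WT against empty vector, ADAR2 E396A against empty vector, ADAR2 WT against ADAR2 E396A unless a comparison is named. Over all genes, limma called 122, 2 and 10; DESeq2 called 212, 7 and 110, limma with no filter 220, 5 and 102, and on the 4 libraries alone 1237, 1 and 194. TMM scaling gave 39 in the last comparison, and a mean of at least 50 gave 58 in the first and 3 in the last. Without the replicate block, in which donor is a term, the counts were 2, 1 and 0; the pairing comes from the deposited statistics, and no member was called with or without it. Without the variance trend, an alternative added after the data were examined, 0 genes were called in each comparison, with 1556, 757 and 1359 at an unadjusted p under 0.05. Of the members, DESeq2 called 1, 0 and 1, no filter 0, 0 and 1, and the 4 libraries alone 3, 0 and 1; edgeR, the other scalings, pseudocounts and the higher filter called 0. The members' median log2 fold change was -0.012, -0.0067 and 9.49e-05 under total-count scaling, and -0.023 and 0.0015 under TMM in the last 2 comparisons. Eno1 had 0.0084 under total-count scaling in the first comparison, where its sign turned.

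With each library left out in turn, members called ranged from 0 to 5, 0 to 0 and 0 to 3, all genes from 1 to 1217, 1 to 127 and 0 to 846, and the members' median from -0.047 to -0.029, -0.056 to -0.032 and -0.043 to 0.031. The libraries that end or make a call are named with the values above. Of 48 values of the 16 members named, 17 turned sign in at least 1 such fit, in the ranges that follow. ADAR2 WT against empty vector gave -0.55 to 0.11 for Aldoc, -0.071 to 0.054 for Eno1, -0.045 to 0.17 for Ldha, -0.037 to 0.077 for Pkm and -0.063 to 0.080 for Tpi1. ADAR2 E396A against empty vector gave -0.28 to 0.39 for Aldoc, -0.019 to 0.030 for Bnip3l, -0.14 to 0.29 for Egln3, -0.041 to 0.20 for Ero1l, -0.085 to 0.12 for P4ha2, -0.14 to 0.072 for Pfkp, -0.093 to 0.12 for Pkm and -0.11 to 0.24 for Slc2a3. ADAR2 WT against ADAR2 E396A gave -0.58 to 0.032 for Aldoc, -0.021 to 0.11 for Hk1, -0.056 to 0.038 for Hk2 and -0.095 to 0.11 for Pkm. The cause of these shifts was not tested. A library left out leaves 1 library in its group, which is then assumed to vary like the others. With 2 mice, the smallest change that limma could call was not tested. The 95% intervals given above do not mark it, since they are not adjusted for the number of genes tested. With ADAR2 WT against empty vector, 6 members had an unadjusted p under 0.05 in limma, and 0 passed after adjustment. The interval of Slc2a3 there ran from 0.606-fold to 0.855-fold, at a limma adjusted p of 0.106.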
